A study of Danio rerio with 10 samples.

Results

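The noncoding RNA records of the zebrafish transcript tables are the entries whose RefSeq accession begins with NR_. Such an accession was carried by 806 of the 15865 transcript records that each file lists. Members were chosen by read sum: a record was described when it had 20 or more reads summed over the 10 libraries, and rn7sk was left out; this gave 40 records, with 39 accessions at 38 positions. Their abundance is therefore a description. By symbol prefix 761 of the 806 records were microRNA (mir) records, 0 were sno, snora or snord records and 45 had other names; 2 of the mir records and 38 of the others were members. By the RefSeq gene table, which held 33 of the 40, there were 15 long noncoding RNAs (lncRNAs), 10 transcribed pseudogenes, 4 records of noncoding transcript variants of protein-coding genes, 2 antisense RNAs, 1 RNase P RNA and 1 microRNA. The label noncoding thus covers quite different RNAs.

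A lncRNA is capped, usually spliced and polyadenylated like an mRNA but has no long conserved reading frame, and it can act in the nucleus or in the cytoplasm. A transcribed pseudogene is a defective gene copy that is still read, an antisense RNA comes from the strand opposite another gene, and a noncoding variant shares most exons with the mRNA of its own gene. MicroRNAs are cut from a primary transcript as short hairpins without a poly(A) tail, and box C/D and box H/ACA small nucleolar RNAs are likewise not polyadenylated.

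All libraries were of polyadenylated RNA from TL strain embryos at 36 hours post fertilization. The 6 whole-embryo libraries were 2 of wild-type controls from crosses between TL fish, 2 of siblings (fn10a+/- & +/+, pooled) and 2 of mutants (fn10a-/-), both of the latter from matings of fn10a heterozygotes, with 30 embryos in each library and a strand-specific dUTP protocol. The other 4 were unstranded libraries of nuclear or cytoplasmic RNA separated with the PARIS kit, with 1 library per fraction for siblings and 1 per fraction for mutants. The siblings are a mixture of genotypes, the controls come from other parents, and the labels do not tell whether the 2 replicates are of different clutches. The p-values therefore rest on the variation among these libraries, some or all of which may be technical. The labels do not name the gene; from what is known of the study, fn10a is an allele of eftud2, a GTPase gene of the U5 snRNP in the spliceosome. The eftud2 transcript stood at 30.2 and 10.5 RPKM (reads scaled by transcript length and by the authors' read total) in controls, 28.1 and 9.91 in siblings and 11.3 and 3.60 in mutants. In bulk RNA, fewer cells of a type and less RNA per cell cannot be told apart.

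Listed reads numbered 34060890 to 82752349 in the whole-embryo libraries and 7164408 to 19195327 in the fractions, and the members held 0.0627% to 0.111% of them. Replicate 1 and replicate 2 of the whole embryos differed: 54.2% to 58.8% of the authors' read total lay on listed records in replicate 1 and 31.6% to 33.7% in replicate 2. The mutant nucleus library stood apart, with 19.2% listed. Ribosomal protein genes, whose mRNAs are mostly cytoplasmic, had a median nucleus to cytoplasm log2 ratio of -0.30 in siblings and 0.58 in mutants. These ratios are relative to the median record, and on this measure the mutant nucleus library went against its label. The median record itself stood at -0.25 in siblings and -1.49 in mutants as deposited. Without centring on it, the ribosomal protein genes lay on the cytoplasmic side in both genotypes. The mRNAs of eef1a1l1, actb1 and actb2 had centred medians of -0.52 and -0.40.

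Counts were very unequal among the 40 records. The 6 records with most reads held 92.4% of the members' reads, and the rpl22l1 record alone held 37.4%. A total of 13 records, down to si:ch211-259g3.4, had 1068 reads or more, 10 had fewer than 100, and 18 had a mean of 1 RPKM or more over the whole embryos. The lowest members were slc2a5 with 22 reads and the mir137 pair with 36. Just outside the threshold stood ugt2b2p with 13 reads, rnu11 with 10, another placement of the mir137 pair with 9 and mir363 with 8.

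The microRNA records were nearly empty. Of 761 records, 57 to 153 nucleotides long, 735 had 0 reads in every library, and the other 26 held 137 reads together. The mir-430 family, which clears maternal mRNAs in the early zebrafish embryo, has 402 records here and all had 0 reads, as had the 8 records of muscle microRNAs, the 3 of mir34 and the 2 of the erythroid mir144 and mir451. For the mir-17-92 clusters, symbols that begin with mir17, mir18, mir19, mir20 or mir92 were sought, which gave 53 records with 3 reads. Those prefixes also take in other microRNAs. The 3 reads lay on mir190, mir196a-1 and mir204-2, and none on a record of the clusters themselves. The 18 records of let-7 held 3. The 26 records of the neural families mir9, mir124, mir183, mir96, mir182 and mir219 held 8, and the 10 Hox cluster records held 1. These counts give the content of polyadenylated RNA libraries, not the level of mature microRNAs.

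Both microRNA members were mir137, which is known mainly from the nervous system. The records mir137-2 (NR_045229) and mir137-3 (NR_048923) lie at the same place, danRer7 chromosome 24, 32514100 to 32514227, minus strand, and had identical counts in all 10 libraries, so they count as 1 measurement. They had 12 reads in control replicate 1 and 1 in replicate 2, 12 and 1 in siblings, 9 and 0 in mutants, 1 in sibling cytoplasm and 0 in the other 3 fractions. All but a few reads were thus in the replicate 1 libraries, in each genotype alike, and no difference between genotypes was detectable at this depth. A second placement of the same accessions on the plus strand of chromosome 24 (32111668 to 32111795) had 9 reads, of which 8 were in replicate 2 of the whole embryos and 0 in replicate 1.

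The lncRNA with most reads was oip5-as1 (listed as si:dkey-71p21.9, NR_046387, chromosome 13, 33484733 to 33491186, minus strand), also known as cyrano, a conserved lncRNA with an extensively paired site for a microRNA. It stood at 23.4 and 9.71 RPKM in controls, 30.3 and 11.8 in siblings and 19.4 and 8.39 in mutants, from 4079 to 19663 reads. Within each replicate number the mutant library was the lowest of the 3. Mutants stood below siblings by a log2 of -0.53 in replicate 1 and -0.55 in replicate 2. By edgeR's quasi-likelihood test with the replicate number as a block the log2 difference was -0.54 (SE 0.116, adjusted p = 0.0921), the smallest adjusted p of any member in that comparison. DESeq2 with the same block called it lower (log2 -0.52, adjusted p = 0.01199), and without the block edgeR gave an adjusted p of 0.9997.

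The lncRNA linc-epb41l4a (listed as si:ch73-46j18.5, NR_036690, chromosome 10, 1739354 to 1745100, minus strand) followed, with 60.8 and 19.8 RPKM in controls, 56.7 and 19.8 in siblings and 34.7 and 14.7 in mutants. The mutants were below both other groups in each replicate number. The difference from siblings was -0.54 on the log2 scale (SE 0.134, adjusted p = 0.121 by edgeR with the block) and that from controls -0.63 (SE 0.134, adjusted p = 0.0719). DESeq2 with the block called both (adjusted p = 0.03949 and 0.008656).

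LOC795545 (NR_104060, now si:dkey-238c7.12, chromosome 18, 7029370 to 7031332, plus strand) had the highest RPKM of the lncRNA members in every library: 88.9 and 38.6 in controls, 70.5 and 51.9 in siblings, 38.8 and 31.1 in mutants. Both mutant values lay below the sibling and control values of the same replicate number. The edgeR block fit gave -0.77 against siblings (SE 0.233, adjusted p = 0.164) and -0.79 against controls (SE 0.235, adjusted p = 0.125), and DESeq2 with the block called it lower in both (adjusted p = 0.04266 and 0.03094). LOC794757 (NR_102278, now ssx2ipb, chromosome 22, 25186723 to 25191239, plus strand) is a rarer record that RefSeq classes as a lncRNA. It had 358 and 103 reads in controls, 435 and 95 in siblings and 205 and 54 in mutants. It stood at -0.91 against siblings (SE 0.262, adjusted p = 0.149 by edgeR with the block).

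Of the 15 lncRNAs 5 stood above 0 in mutants against siblings and 8 against controls. Among them si:dkey-16n15.3 (NR_104072, chromosome 8, 24242332 to 24243185, minus strand) had 54 and 189 reads in controls, 259 and 243 in siblings and 459 and 529 in mutants, or 0.517 and 2.27, 2.40 and 2.89, and 4.16 and 6.53 RPKM. In RPKM each mutant library was above every library of the other groups. Scaled to the listed reads, mutant replicate 1 (5.79) was below sibling replicate 2 (7.02). On that scale each mutant library was still above the sibling and control libraries of the same replicate number. Against controls the block fit gave a log2 of 2.13 (SE 0.459, adjusted p = 0.0733) and DESeq2 with the block called it higher (log2 2.17, adjusted p = 9.776e-05); the replicates gave 2.98 and 1.47, and the block fit gave 1.42 without control replicate 1 and 3.10 without control replicate 2. Against siblings it stood 2.0-fold higher (log2 SE 0.434, adjusted p = 0.28), and siblings stood 1.13 above controls (SE 0.456, adjusted p = 0.64).

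For other lncRNAs the log2 difference between siblings and controls was larger than that between mutants and siblings, though which is larger was not tested. The 2 nfr records (NR_040606 and NR_040607, chromosome 5, 30145120 to 30150365, plus strand) had identical counts in all libraries: 14 and 26 in controls, 78 and 62 in siblings, 35 and 58 in mutants. Siblings stood above controls by 1.79 (SE 0.528, adjusted p = 0.64 by edgeR with the block). LOC553446 had 10 and 12 reads in controls, 47 and 41 in siblings and 23 and 60 in mutants. It stood at 1.95 in siblings against controls (SE 0.634, adjusted p = 0.64) and at 1.80 in mutants against controls (SE 0.638, adjusted p = 0.169). In RPKM, both control libraries were below every sibling and mutant library for both genes. Scaled to the listed reads, control replicate 2 was above mutant replicate 1 for nfr (0.712 and 0.442) and for LOC553446 (0.329 and 0.29). Within each replicate number the control library was the lowest for both genes on either scale. Of the other lncRNA members, zgc:195356 had 61, 75 and 103 reads in replicate 1 and 7, 12 and 13 in replicate 2 of controls, siblings and mutants, with mutants highest in both (log2 0.36 against siblings, SE 0.516, adjusted p = 0.75 by edgeR with the block), si:dkey-167i21.2 had 48 in all, and rln, at 51 reads in all, lies opposite part of jmy and overlaps rln1 on its own strand.

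**Figure D1:**
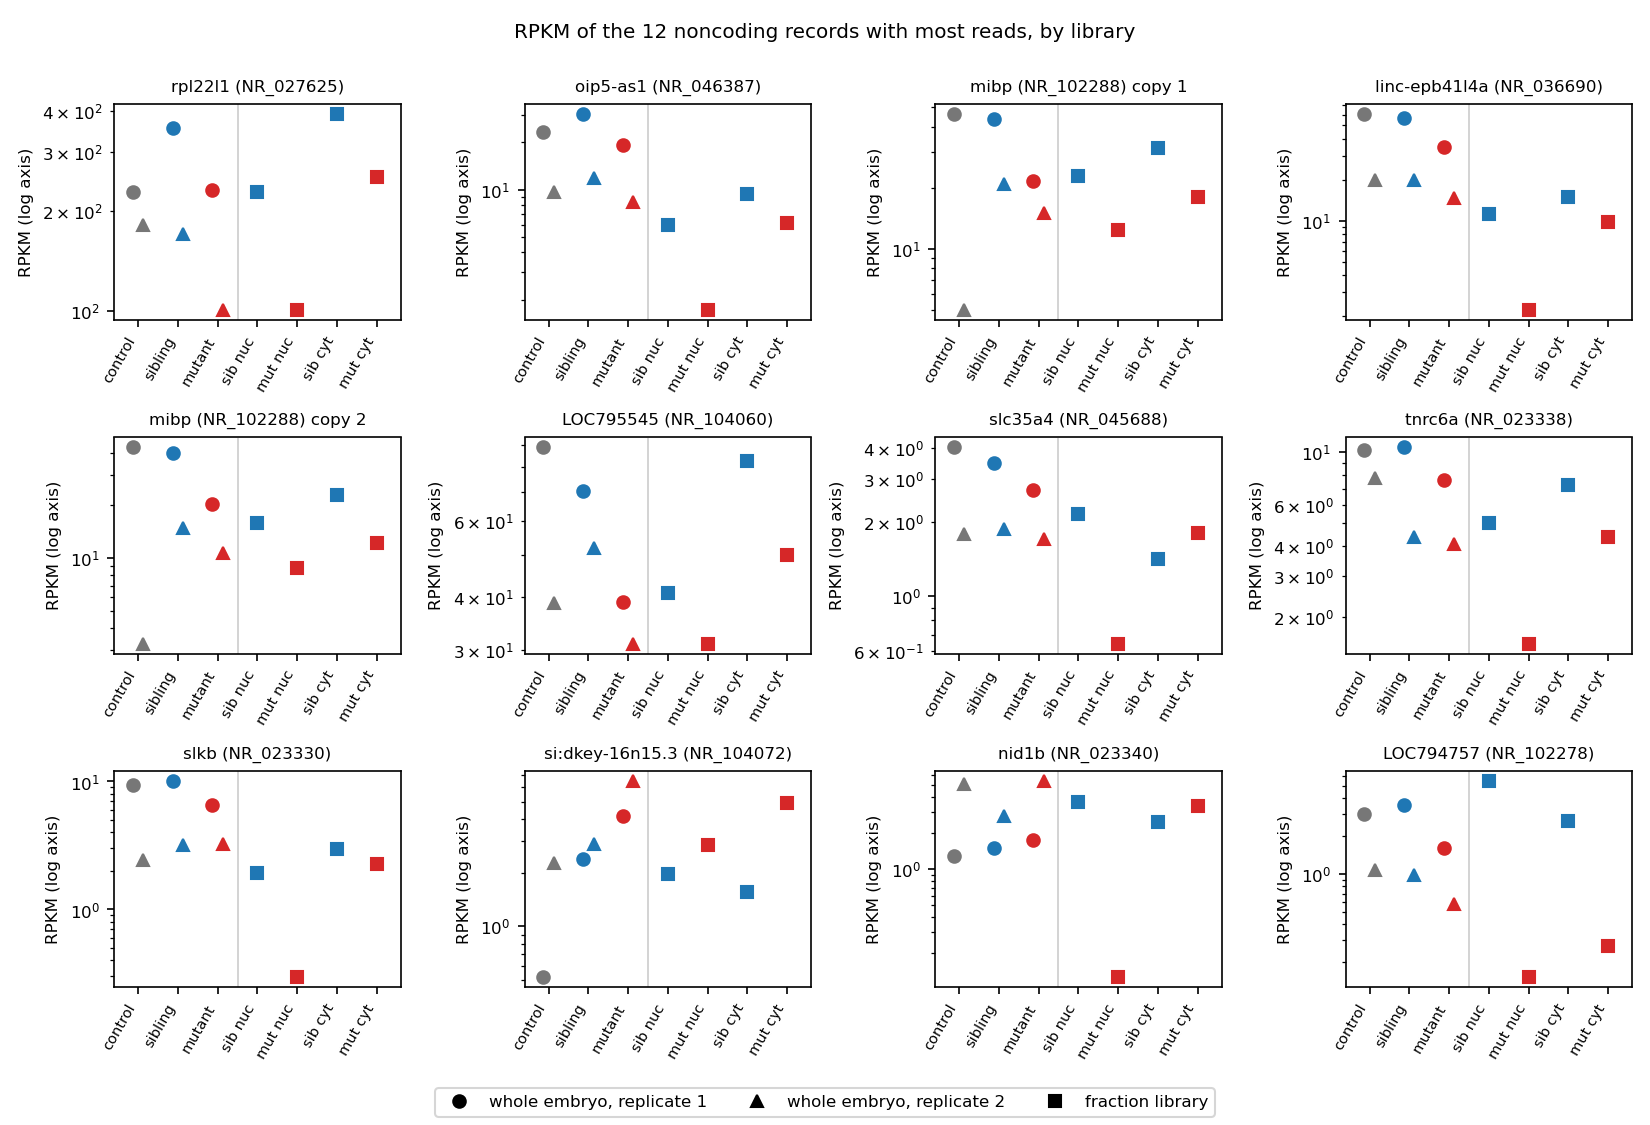
RPKM (log axis, a scale of its own in each panel) of the 12 noncoding records with most reads in every library; circles are replicate 1 and triangles replicate 2 of whole embryos, squares the single nuclear (nuc) and cytoplasmic (cyt) libraries. oip5-as1, linc-epb41l4a and LOC795545 are lowest in mutants within each replicate number, and si:dkey-16n15.3 is highest in mutants. In RPKM replicate 1 lies well above replicate 2 for most records. With TMM scaling the median log2 of replicate 2 minus replicate 1 over all 40 members is 0.23 in controls, -0.04 in siblings and -0.09 in mutants.

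Noncoding variants of protein-coding genes held 3 accessions, and their counts could not be separated from the mRNA. The rpl22l1 record (NR_027625, chromosome 24, 27271787 to 27276437, minus strand) belongs to a paralog of the ribosomal protein gene rpl22. It had 100.6 to 103.0 reads per 100 reads of the coding rpl22l1 record (NM_001045335) in the 10 libraries. Likewise the slc35a4 record, of a solute carrier gene, had 94.1 to 101.1 per 100 of its coding record, and the 2 mibp records, of a muscle integrin-binding protein gene, 90.5 to 98.03. So the 4 records give the level of the gene, not of a noncoding RNA.

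rpl22l1 stood at 228 and 181 RPKM in controls, 355 and 171 in siblings and 231 and 101 in mutants. Mutants were below siblings in both replicate numbers (-0.50 and -0.82), with a log2 of -0.64 in the block fit (SE 0.233, adjusted p = 0.219). Its coding record had 6617 to 31770 reads over the same libraries.

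mibp has 2 placements on the plus strand of chromosome 22 (4759524 to 4763767 and 4822695 to 4826938). The first placement had 9572 and 812 reads in controls, 9329 and 3475 in siblings and 4689 and 2412 in mutants; the second had 65.8 to 94.4 reads per 100 of the first over the 10 libraries. Control replicate 2 was far below every other whole-embryo library. Mutants against controls accordingly had opposite signs in the replicate numbers, -1.07 and 1.56 for the first placement, while mutants against siblings had -0.90 and -0.53. The block fit gave -0.67 against siblings (SE 0.596, adjusted p = 0.58). The summed RPKM of 10 skeletal muscle genes also differed with replicate number, at 7099 and 2687 in controls, 8877 and 3069 in siblings and 7111 and 2419 in mutants. RPKM divides by the authors' read total, of which a smaller share lay on listed records in replicate 2. Of these muscle genes 0 passed edgeR with the block in either mutant comparison, and their part in the mibp values was not tested.

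The 10 transcribed pseudogenes were spread on both sides of 0. In mutants against siblings 4 stood lower and 6 higher, with a median log2 of 0.27 and a range of -0.93 to 0.95 in the block fit. The tnrc6a record (NR_023338, chromosome 3, 35616373 to 35616807, plus strand), named after a gene for a partner of Argonaute proteins, had 604 and 366 reads in controls, 642 and 208 in siblings and 475 and 187 in mutants. Its mutant libraries were lowest in each replicate number, at -0.70 against controls (SE 0.253, adjusted p = 0.176). The znf236 record had 3.28 and 0.922, 3.05 and 1.03, and 1.55 and 0.533 RPKM in the same order, again lowest in mutants, at -0.93 against siblings (SE 0.345, adjusted p = 0.228).

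The nid1b record (NR_023340, chromosome 11, 45447275 to 45447914, plus strand) lies on the same strand as part of gli2b, a transcription factor gene of Hedgehog signalling. It had 112 and 353 reads in controls, 136 and 193 in siblings and 161 and 366 in mutants, while gli2b had 655 and 116, 438 and 93, and 354 and 78. Replicate 2 was thus the higher for the nid1b record and the lower for gli2b in every group. The finTRIM family record ftr53 had 76, 79 and 94 reads in replicate 1 of controls, siblings and mutants and 51, 4 and 12 in replicate 2. The records now named fam120a (NR_023337), wu:fj39h09, wu:fc20e06 and si:ch211-259g3.4 had 696 to 1068 reads in all, with log2 differences from siblings of 0.45, -0.18, -0.34 and 0.09 and adjusted p-values of 0.513 to 0.917. ugt1b6p, a pseudogene of the glucuronosyltransferase family that lies within ugt1b7, had 94 reads where ugt1b7 had 13650, and the last pseudogene, NR_023323, had 104.

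Of the members 4 overlap a record on the other strand (slc34a2aas, grnas, grnaas and rln), and how the counting treated strand is not stated, so their reads may include those of the partner. slc34a2aas, the natural antisense RNA of the phosphate transporter gene slc34a2a (NR_002876, chromosome 1, 13316799 to 13339179, minus strand), had 32 and 9 reads in controls, 19 and 6 in siblings and 5 and 0 in mutants. Both mutant counts lay below all sibling and control counts, and the block fit gave -3.19 against controls (SE 1.04, adjusted p = 0.147) and -2.43 against siblings (SE 1.06, adjusted p = 0.284). The sense gene had 10 reads in all, so the antisense record was the more abundant of the pair. grnas, opposite grn1 and grn2 of the progranulin family, had 12 and 12, 2 and 3, and 8 and 1 reads.

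lnc.tie1 (listed as LOC100500728, NR_036574, chromosome 6, 33681514 to 33682310, plus strand) is known as an antisense RNA of the endothelial receptor gene tie1. It had 0 reads in all 3 replicate 1 libraries and 81, 60 and 104 in replicate 2 of controls, siblings and mutants. The dync2h1 record (NR_023326) had 0, 0 and 0 in replicate 1 and 48, 36 and 8 in replicate 2, and grnaas, opposite the progranulin gene grna, had 0, 0 and 0 and 11, 6 and 15. These 3 of 40 members (7.5%) were at 0 in replicate 1 with 20 or more reads in replicate 2, against 8 of 14207 other records (0.0563%). The reverse, 0 in replicate 2 with 20 or more reads in replicate 1, held for 0 members and 16 other records (0.113%). The part of count size in these shares was not tested. A count of 0 allows up to 3 reads in a library. Genotypes can be compared for these 3 members only within replicate 2, where dync2h1 was lowest in the mutant library.

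rpph1, the RNA subunit of RNase P, which trims the 5′ end of tRNAs, had 21 and 0 reads in controls, 7 and 29 in siblings and 1 and 8 in mutants. Its order over the groups differed between the replicate numbers, and the block fit gave an SE of 1.75 for a log2 of -1.94 against siblings. Of the members that the RefSeq table did not hold, slkb had 2247 reads, tbc1d10b 782 and ugt5b5p 227 over the 10 libraries. zgc:194659 had 0 and 16 reads in controls, 56 and 12 in siblings and 127 and 18 in mutants, so that the groups differed in replicate 1 alone. Its whole span lies within dicp1.1 on the same strand, which had 53 and 1, 39 and 0, and 1 and 1 reads in that order. How reads were divided between these records was not tested. slc2a5 had 0 and 11, 8 and 3, and 0 and 0 reads.

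**Figure D2:**
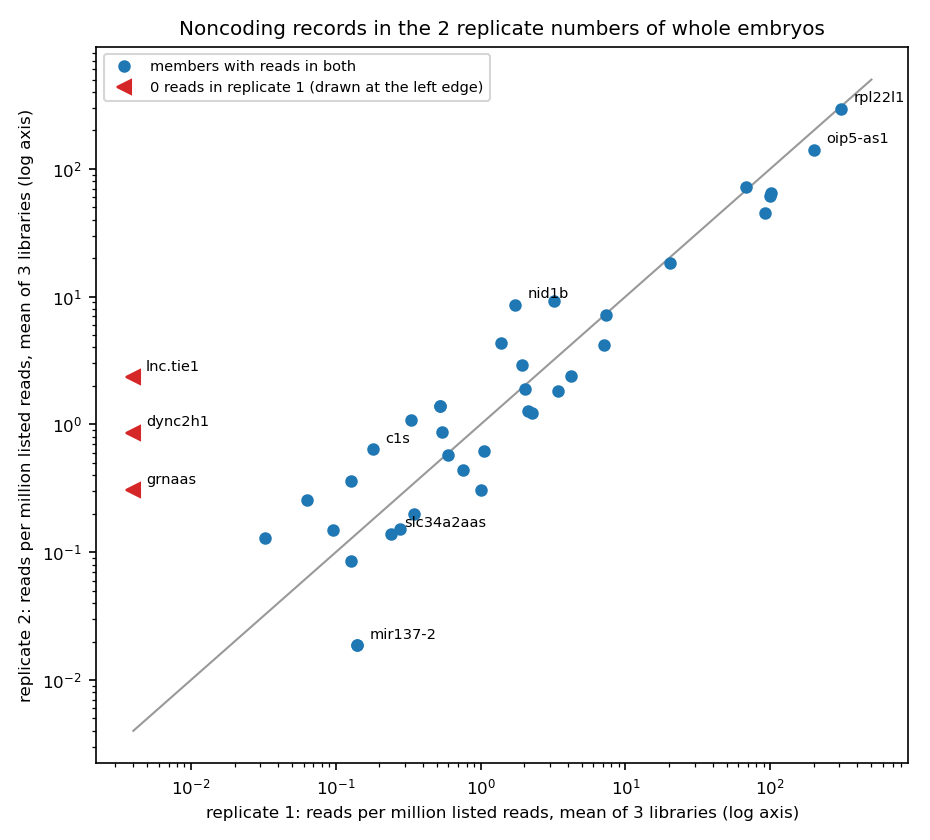
Each point is 1 of the 40 noncoding records, plotted by its reads scaled to the listed reads in replicate 1 (horizontal) and replicate 2 (vertical), each the mean of the control, sibling and mutant libraries, on log axes with the line of equality. lnc.tie1, dync2h1 and grnaas have 0 reads in replicate 1 and are drawn at the left edge, and records of few reads lie farther from the line than rpl22l1 and oip5-as1.

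The members varied with the replicate number more often than all records did. Between replicate 1 and 2 of the same group 57.5% of members differed 2-fold or more in controls, 42.5% in siblings and 55.0% in mutants, against 30.3%, 22.1% and 20.1% of the 14247 records with 20 or more reads over the whole embryos. Many members have low counts, and the part of count size in these shares was not tested.

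The comparison of mutants with siblings asks what differs between embryos of the same matings. By edgeR without the block 0 of 40 members were called at an adjusted p under 0.05, against 0% of all 14247 records, with 0 members and 634 records at an unadjusted p under 0.05. With the replicate block 0 members were called, against 1.31% of all records (187), and 6 members (15%) had an unadjusted p under 0.05, against 19.5% of all records. DESeq2 with the block called 3 members, all lower (oip5-as1, linc-epb41l4a and LOC795545), against 9.68% of the 12313 records to which it gave an adjusted p; 19 members had one. Without a test, 22 members (55.0%) were lower and 8 (20%) higher in mutants in both replicate numbers, where all records had 36.3% lower and 36.7% higher. The members' median log2 was -0.30 in the block fit, against -0.0015 over all records. By kind, 10 of 15 lncRNAs, the 4 noncoding variants and 4 of 10 pseudogenes stood below 0. The mir137, nfr and mibp pairs enter these counts and the median as separate records, though each pair is a single observation. All of these paired records were lower in mutants in both replicate numbers.

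Against wild-type controls edgeR called 0 members without the block (0% of all records, 815 records and 1 member, slc34a2aas, at an unadjusted p under 0.05) and 0 with it, against 2.49% (355 records), with 8 members (20%) and 23.8% of all records at an unadjusted p under 0.05. DESeq2 with the block called 3, si:dkey-16n15.3 higher and linc-epb41l4a and LOC795545 lower, against 13.5% of records. Of the members 14 (35.0%) were lower and 8 (20%) higher in both replicate numbers, where all records had 33.2% and 30.9%, and the median was -0.29. The share that was lower in both was thus close to that of all records here. The mir137 pair counts among the lower and the nfr pair among the higher, each pair a single observation. Both comparisons share the mutant libraries. Siblings against controls gave 0 member calls by edgeR without the block and with it (0% of records each, 146 records and 0 members at an unadjusted p under 0.05 without the block, 5 members or 12.5% and 7.68% of all records with it) and 0 by DESeq2 with the block (0.646% of records).

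These calls depended on the control libraries. In mutants against controls the mibp records ran from -0.97 to 1.47 and from -1.08 to 1.72 over all fits. Mutants were below control replicate 1 and above control replicate 2 for both mibp records. Over the same fits ftr53 ran from -2.41 to 0.44 and tnrc6a from -1.03 to -0.33. For zgc:194659, with 0 reads in control replicate 1, the log2 ran from 0.35 to 9.5. With the block and without control replicate 1 or 2, edgeR called 8 members in mutants against siblings in either case, rpl22l1, both mibp records, LOC794757, oip5-as1, linc-epb41l4a and LOC795545 lower and si:dkey-16n15.3 higher; these fits have fewer residual degrees of freedom and called 18.8% and 19.6% of all records. Against controls they called 7 and 6 members, among them zgc:194659, tnrc6a and ftr53, where 20.2% and 16.8% of all records were called. In siblings against controls they called 3 and 2, where all records had 4.87% and 3.33%. In the mutant comparisons the members were thus called at about the rate of all records. Without any one sibling or mutant library 0 members were called with the block.

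**Figure D3:**
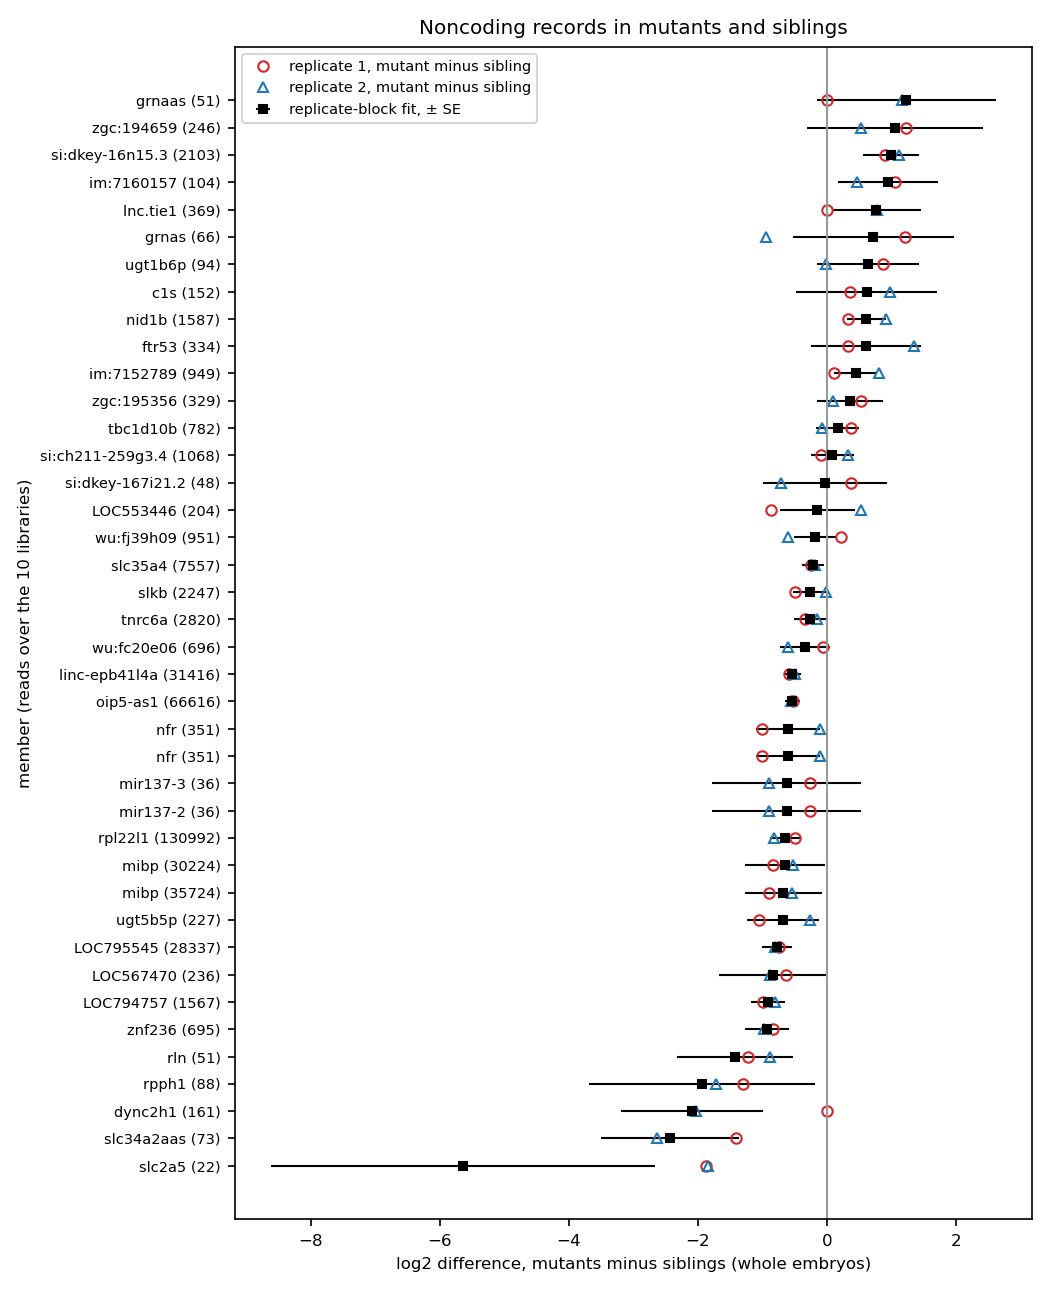
Log2 differences of mutants minus siblings for the 40 records (reads over the 10 libraries in brackets): squares and bars give the block fit with its standard error, circles replicate 1 and triangles replicate 2. The 7 records with most reads lie between -0.22 and -0.77, those under 100 reads spread widely, and the value of slc2a5, which has 0 reads in mutants, depends on the fit and is no measure of size.

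In the fractions each group was 1 library, so no test was possible and intervals cover counting error only. The log2 ratios below are of RPKM, relative to the median of records with 100 or more reads over both libraries, and a record was read when it had 20 or more reads over both. As deposited, the median record stood at -1.20 in mutant against sibling nucleus and 0.03 in mutant against sibling cytoplasm.

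In mutant against sibling cytoplasm 24 members could be read. Most abundant records that stood lower in whole embryos stood lower here too, with slc35a4 as an exception at 0.32. oip5-as1 had 1302 and 1833 reads (log2 -0.64, 95% interval -0.74 to -0.54), linc-epb41l4a 494 and 693 (-0.63, -0.80 to -0.47), and LOC795545 1314 and 2013 (-0.76, -0.86 to -0.66). rpl22l1 stood at -0.67 with 7403 and 10628 reads. si:dkey-16n15.3 was the farthest above, with 173 and 51 reads (1.62, 1.16 to 2.10), and LOC794757 the farthest below, with 11 and 98 (-3.30, -4.35 to -2.40). Past 2-fold there were 3 members higher (si:dkey-16n15.3, znf236 and wu:fc20e06) and 2 lower (LOC794757 and dync2h1, 4 and 17 reads), against 4.78% and 6.1% of all records read. znf236 had 24 and 9 reads (1.27, 0.11 to 2.56) and wu:fc20e06 22 and 9 (1.14, -0.03 to 2.45). In whole embryos both stood below siblings, at -0.93 and -0.34 in the block fit. The median of the members was -0.64 and of all records -0.01. These libraries are separate from the whole embryos, and 20 of the 24 members (83.3%) had the sign of the whole-embryo block fit, as had 78.3% of all records. The nfr and mibp pairs enter these counts and the median as separate records, though each pair is a single observation. All of these paired records are among the 20.

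In mutant against sibling nucleus 24 members could be read, 4 of them 2-fold or more higher and 6 lower, against 16.7% and 24.1% of all records. The 6 were LOC794757 with 5 and 203 reads (log2 -3.96, interval -5.60 to -2.72), nid1b with 3 and 97 (-3.64, -5.94 to -2.05), slkb with 5 and 37, wu:fj39h09 with 9 and 56, lnc.tie1 with 7 and 43, and linc-epb41l4a with 90 and 520 (-1.15, -1.49 to -0.83). These libraries are unstranded, so reads of the antisense lnc.tie1 and of the opposite strand cannot be told apart in them. The 4 were grnas with 16 and 6 reads (2.79, 1.37 to 4.44), dync2h1 with 27 and 21, si:dkey-16n15.3 with 82 and 64 (1.74, 1.25 to 2.23), and c1s with 10 and 11, whose interval reaches -0.15. Without centring on the median record 1 member was higher and 14 lower, and by listed reads 3 and 9, so the split follows the scaling of the mutant nucleus library. Here 11 of 24 members (45.8%) had the sign of the whole-embryo fit, against 60.2% of all records. The nfr and mibp pairs again enter as separate records, and none of these paired records is among the 11. This count also follows the scaling. As deposited, rpl22l1 (-1.19), LOC795545 (-0.391), wu:fc20e06 (-0.754), the mibp records (-0.877 and -0.855) and the nfr records (-0.754) had the whole-embryo sign too. The share of all records as deposited was not counted. oip5-as1 had 294 and 1168 reads in the nuclei (-0.61, -0.80 to -0.43). LOC794757, linc-epb41l4a, oip5-as1, tnrc6a, slkb and wu:fj39h09 were lower, and si:dkey-16n15.3 higher, in mutants in both fractions and in whole embryos. The size did not match for LOC794757, at -3.96 and -3.3 in nucleus and cytoplasm and -0.91 in whole embryos. What sets these libraries apart was not tested.

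**Figure D4:**
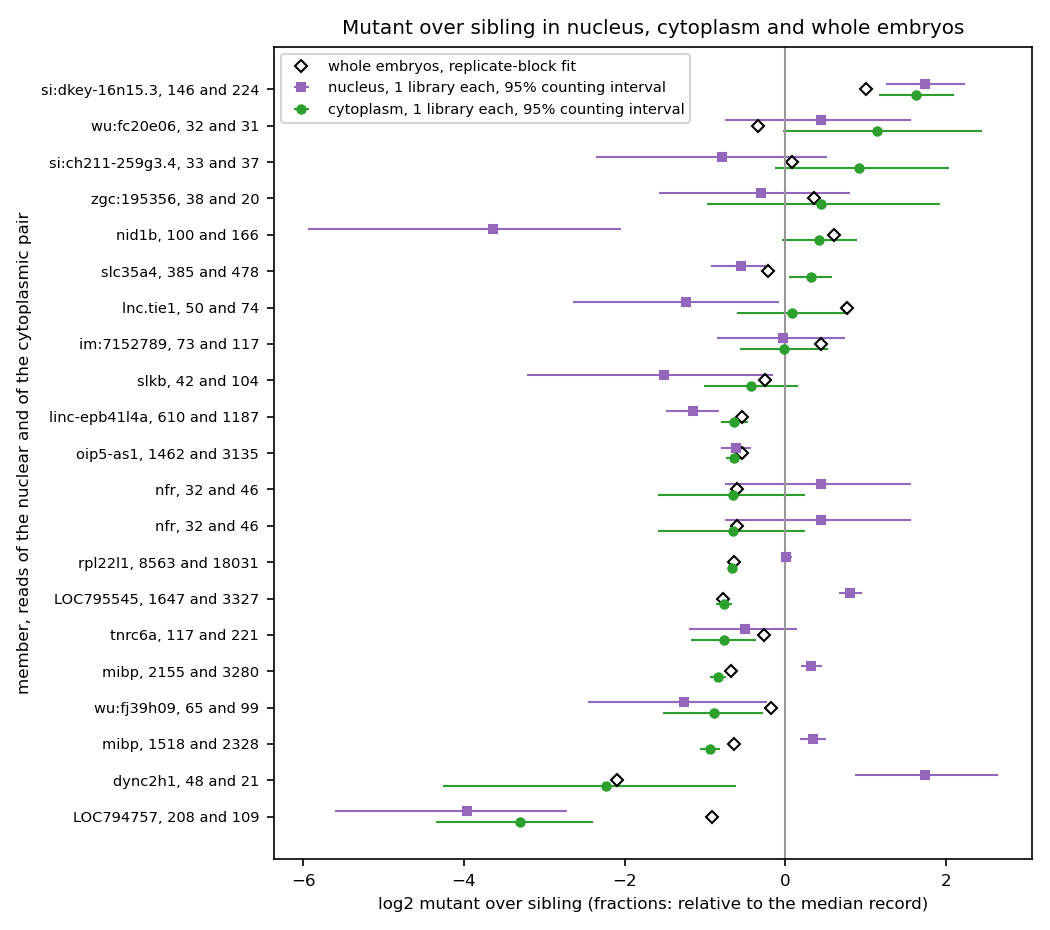
Log2 of mutant over sibling for the 21 records read in both fractions: purple squares the nucleus and green circles the cytoplasm, relative to the median record with 95% counting intervals, black diamonds the whole-embryo block fit. The cytoplasmic values lie near the diamonds for most of the abundant records, but not for slc35a4 (0.32 and -0.22) or LOC794757 (-3.30 and -0.91). rpl22l1, LOC795545 and both mibp records sit to the right in the nucleus.

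Nucleus and cytoplasm were then compared within a genotype. In siblings 23 members could be read, 5 of them 2-fold or more higher in the nucleus and 1 lower, against 7.07% and 9.78% of all records. The 5 were LOC567470 (17 and 3 reads, log2 2.76, interval 0.97 to 5.17), zgc:195356 (29 and 8, 2.11), wu:fc20e06 (21 and 9, 1.48), si:ch211-259g3.4 (27 and 12, 1.43) and LOC794757 (203 and 98, 1.31, 0.95 to 1.67). tbc1d10b was the lower one (10 and 42 reads, -1.82, -2.98 to -0.80). Most of the abundant records were on the cytoplasmic side, LOC795545 at -0.78, rpl22l1 at -0.53 and oip5-as1 at -0.40, with mibp at -0.22 and -0.28; linc-epb41l4a was at -0.16 with an interval that reaches 0.01. slc35a4 was on the nuclear side, with 305 and 201 reads (0.86, 0.60 to 1.12). Without centring, 5 were higher and 2 lower.

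In mutants 24 members could be read, 7 of them 2-fold or more higher in the nucleus and 4 lower, against 15.9% and 24.6% of all records. dync2h1 (27 and 4 reads, log2 4.55), grnas (16 and 5, 3.47) and c1s (10 and 13, 1.41) were the farthest above. The others above were zgc:195356 (9 and 12, 1.38, interval -0.05 to 2.75), the second mibp placement (498 and 853, 1.02) and the nfr pair. The nfr records had identical counts (11 and 19, 1.0, -0.21 to 2.15). They are 1 measurement, though they enter the 7 as separate records. tbc1d10b (1 and 54, -3.96), nid1b (3 and 99, -3.25), znf236 (2 and 24, -1.79) and slkb (5 and 47, -1.44) were below. The interval of znf236 reaches 0.22. Without centring, 2 were higher and 13 lower, and by listed reads 4 and 6. The fractions were counted from unstranded libraries, where grn1 had 58 reads in sibling and 10 in mutant nucleus, so reads of grnas and of its sense partner cannot be told apart there. rpph1 had 0 reads in both nuclear libraries and 13 and 9 in sibling and mutant cytoplasm.

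Genes that make or carry small noncoding RNAs were followed as a list. Of 25 genes of microRNA processing and Argonaute proteins 9 were in the tables under the symbols sought, and edgeR with the block called 0 of them in mutants against siblings (median log2 -0.10) and 0 against controls. Those with most reads were ddx5, a helicase of the Drosha complex, at -0.10 against siblings (adjusted p = 0.782), srrt at 0.02 (adjusted p = 0.951) and dicer1, which cuts precursors into mature microRNAs, at 0.35 (adjusted p = 0.222). Of 13 genes of box C/D snoRNP assembly 8 were in the tables and tested, and edgeR with the block called 1 higher and 0 lower. In that fit 1.31% of all records were called against siblings and 2.49% against controls. The gene was ruvbl1, an ATPase gene that also serves other complexes. It rose by a log2 of 1.87 against siblings (SE 0.143, adjusted p = 0.009548) and 1.99 against controls (adjusted p = 0.00553). The list's median was 0.25 against siblings, and fbl, the methyltransferase of these particles, stood at 0.61 (adjusted p = 0.0921). Of 5 tested box H/ACA genes 0 were called, with a median of 0.25; dkc1, the pseudouridine synthase gene, stood at -0.09 (adjusted p = 0.863), nhp2 at 0.51 (adjusted p = 0.231) and gar1 at 0.25 (adjusted p = 0.501). Without the block edgeR called 0 genes of these lists.

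Cell type markers were read from the same fit, since whole embryos hold all tissues. Of 7 erythroid genes 0 were called in either mutant comparison, with a median log2 of -0.89 against siblings and -0.61 against controls. Single erythroid genes differed: against siblings the globin genes ran from -1.69 (hbbe2) to -0.89 (hbae1). There alas2, slc4a1a and gata1a stood at -0.03, -0.06 and -0.14. Against controls slc4a1a and gata1a stood at 0.18 and 0.43, and the other erythroid genes below 0. Of 5 neuron genes 0 were called against siblings (median -0.25). Against controls 1, the tubulin gene tubb5, fell (log2 -0.81, adjusted p = 0.04097 by edgeR with the block), where 2.49% of all records were called. The list median there was -0.64. The summed RPKM of the neuron genes was 319 and 161 in controls, 310 and 123 in siblings and 225 and 86.3 in mutants, lowest in mutants within each replicate number, but single genes differed: against siblings tubb5 stood at -0.80, stmn1b at -0.47 and elavl3 at -0.25, and elavl4 and snap25a at 0.38 and 0.40. The part of neurons in the values of the noncoding records was not tested.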

How the data were processed

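Each deposited file lists 15865 RefSeq transcript records of 1 library with position, length, read count and RPKM, per the file headers. The counts are raw whole numbers as the authors deposited them, and the authors' RPKM divides the count by transcript length and by 1 read total per file. The aligner was TopHat2 2.0.8 and the genome build danRer7, per the submitters' processing notes. Not given in the sources used here are the counting tool and its treatment of strand and of reads with several placements. Positions are danRer7, counted from 1. Current names and RNA kinds come from a RefSeq table of another build (GRCz12tu), of which no position was used.

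All 14247 records with 20 or more reads over the 6 whole-embryo libraries were fitted in 1 model with edgeR 4.0.16 (R 4.3.3, TMM scaling, glmQLFit and glmQLFTest), with Benjamini-Hochberg adjustment over all of them and a threshold of 0.05. The main fit had the group alone. A second fit added the replicate number as a block. The SE given with edgeR values is the absolute log2 difference divided by the square root of the F statistic of its test. Deviations of same-numbered libraries from their group means correlated at 0.640, 0.599 and 0.772 between groups, so the replicate numbers pair the libraries, as judged from the data and not from the labels. The files of replicate 1 also use another header and start convention. DESeq2 1.42.0 and limma 3.58.1 were alternatives; scripts were tested on simulated counts. The fractions were compared with no test. Intervals are exact (Poisson for a count, binomial for a ratio, 95%) and cover counting error only.

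Named were members called in any fit, the 5 farthest on each side in each fraction comparison, the 5 with most reads per class, and called or most-read genes of each list; others are named to account for every member and were chosen after their values were seen. The members and lists were chosen with earlier results of these data known. No sequences are printed.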

Additional observations from a re-analysis of the deposited data

Results flagged for a closer look

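Records whose mutant to sibling ratio lay on opposite sides of the median record in the nucleus and in the cytoplasm, each with a counting interval that leaves out 0, were picked out. The difference between the fractions was not tested, since each value rests on 1 library per genotype. The mutant nucleus library stood apart in its share of listed reads and, relative to the median record, in its ribosomal protein mRNAs. The part of that library was not tested. The dync2h1 record stood at a log2 of 1.74 in the nucleus and -2.23 in the cytoplasm, from 27 and 21 and from 4 and 17 reads of mutant and sibling. LOC795545 stood at 0.809 in the nucleus and -0.761 in the cytoplasm. As deposited, without centring on the median record, it stood at -0.391 and -0.727, so the opposite signs are lost. The mibp placements stood at 0.323 and 0.345 in the nucleus and at -0.836 and -0.936 in the cytoplasm; they share an accession and most reads with the coding mibp records, so they are 1 observation. As deposited they stood at -0.877 and -0.855 in the nucleus and -0.802 and -0.902 in the cytoplasm, with the same sign in both fractions. The slc35a4 record went the other way, at -0.552 in the nucleus and 0.317 in the cytoplasm. The signs of dync2h1 (0.542 and -2.2) and slc35a4 (-1.75 and 0.351) stayed opposite as deposited.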

How the results depend on the processing

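With 2 libraries per group, low counts, and reads shared between overlapping records or placements, small differences of most members could not be detected. With the replicate block the number of members called stayed at 0 in all 3 whole-embryo comparisons. DESeq2 with the replicate block, added after seeing the data, called 3 in mutants against siblings, 3 in mutants against wild-type controls and 0 in siblings against controls. Leaving out 1 library at a time, with and without the block, gave 0 to 8, 0 to 7 and 0 to 3 calls in these comparisons; all calls came with the block and without control replicate 1 or 2 (8 and 8, 7 and 6, 3 and 2), where 2676 and 2793, 2882 and 2388, and 694 and 474 of 14247 records were called. The leave-out fits with the block were also added after seeing the data. Other scaling, filters, DESeq2 or limma without the block, 1 record per symbol and only the libraries compared gave 0 calls each. Over 23 settings oip5-as1 ran from -0.74 to -0.35 and linc-epb41l4a from -0.78 to -0.27 against siblings, LOC795545 from -1.05 to -0.47, and si:dkey-16n15.3 from 0.86 to 3.97 against controls.

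In the fractions, with 50 or more reads required, 6, 2, 2 and 4 members passed 2-fold in mutant against sibling nucleus, mutant against sibling cytoplasm, and nucleus against cytoplasm of siblings and of mutants, where 10, 5, 6 and 11 passed with 20. With 10 or more reads, 10 passed in sibling nucleus against cytoplasm. Requiring the counting interval to leave out 0 left 7 in mutant nucleus against cytoplasm. Other fraction settings kept within 1.5 times the count.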
